A study of Homo sapiens with 6 samples.

Results

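Keratins are the intermediate filament proteins of epithelial cells, and 10 of their genes were followed here in SW480 cells with and without knockdown of MORC2. The genes were KRT7, KRT8, KRT80, KRT81 and KRT86 of type II and KRT17, KRT18, KRT19, KRT20 and KRT23 of type I. They were chosen by name as keratins of simple, stressed and cancer epithelia, with earlier results of these data known. They make 10 of the 56303 genes in the count table. SW480 is a human colorectal adenocarcinoma cell line, grown here in medium with serum. The shCtrl group carried a nonsilencing short hairpin RNA and the shMORC2 group a hairpin against MORC2, a chromatin-associated ATPase, each with 3 RNA-seq libraries. Both hairpins were delivered by lentivirus and the infected cells were selected with puromycin as stable lines, described as clonal. One hairpin line was thus compared with one control line, and line and hairpin cannot be told apart. Replicates were separate experiments on these lines, so the p-values measure the spread between those experiments.

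A keratin filament is built from dimers that pair one type I with one type II protein, and a keratin without a partner is degraded. KRT8 with KRT18, and then KRT19 and KRT20, form the filaments of the gut epithelium, whereas KRT5, KRT6, KRT14, KRT16 and KRT17 belong to stratified, wounded or hyperproliferative epithelium. KRT81 and KRT86 are hair keratins that some carcinomas also express. Filaments are anchored at desmosomes and hemidesmosomes through plakins and plakophilins.

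The type II genes and KRT18 lie in one cluster on chromosome 12, between 52168996 and 52952901 in GRCh38 coordinates, and the other type I members lie on chromosome 17 between 40654665 and 41624842. KRT8 spans positions 52897187 to 52949954 on the minus strand and KRT18 spans 52948871 to 52952901 on the plus strand. The exons of both genes overlapped by 525 bases, which is 16.3% of the exon length of KRT18. KRT81 lies on the minus strand at 52285913 to 52291534, inside the span of KRT86 on the plus strand at 52249300 to 52309163, and shared 0 exon bases with it. The library kit keeps strand, but the strand setting of the counting is not given in the sources used here. Reads of overlapping exons on opposite strands may therefore have been assigned to either gene or dropped.

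KRT81 and KRT86 are close copies, and their sequences bear on every count given for them. Their coding sequences were 90.1% identical over 1519 aligned positions in the GENCODE v44 canonical transcripts. Of all 50-base windows of the KRT81 transcript, 38.4% also occurred in transcripts of KRT86, and 32.8% of the KRT86 windows occurred in KRT81. The 90 coding bases in which they differed most, coding positions 1237 to 1326 in both, are shown with the 19 differing bases in capitals.
KRT81: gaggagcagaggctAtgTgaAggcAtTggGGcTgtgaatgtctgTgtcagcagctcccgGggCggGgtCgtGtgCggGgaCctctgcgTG
KRT86: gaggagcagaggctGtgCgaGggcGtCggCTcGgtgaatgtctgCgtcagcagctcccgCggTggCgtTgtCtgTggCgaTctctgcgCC
In KRT81 this stretch runs through exons 7, 8 and 9 of 9 on the minus strand, at chr12:52287102-52287112, chr12:52286791-52286822 and chr12:52286447-52286493. In KRT86 it runs through exons 9, 10 and 11 of 11 on the plus strand, at chr12:52306270-52306280, chr12:52308233-52308264 and chr12:52308404-52308450. Of the 19 differences, 16 fell on the third base of a codon. Reads from such stretches can be told apart, whereas a read that lies wholly within identical sequence cannot be by its own bases. Read length was not taken into account.

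Other members differed widely in how much sequence they share. KRT18 shared 52.8% of its windows with transcripts of other genes, KRT8 39.2% and KRT17 18.3%. For KRT8, 33 of the 38 genes with a shared window were keratin pseudogenes, and for KRT18 43 of 45. By windows, however, the gene that shared most with KRT18 was KRT8, at 23.9%, beside 11.1% for the pseudogene KRT18P11. For KRT7 it was KRT7-AS, at 11.2%. Windows were matched on both strands. The share was 11.7% for KRT7, 4.44% for KRT23, 1.79% for KRT19 and 0.418% for KRT80, and KRT20 had 0 shared windows. Of the members, KRT20, KRT80 and KRT19 thus shared the least sequence with other transcripts.

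Each library held between 42092664 and 43434425 gene counts. Levels are given as counts per 1000000, scaled by TMM (CPM), which corrects for depth but not for gene length. MORC2, the target of the hairpin, had 46.1, 46.4 and 48.8 CPM in the shCtrl libraries and 35.0, 29.3 and 27.2 CPM in the shMORC2 libraries. It was lower in every shMORC2 library, with a fold of 0.647 (log2 fold change -0.63, SE 0.095, edgeR adjusted p = 0.000216). MORC2 RNA was thus lowered but not removed.

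**Figure D1:**
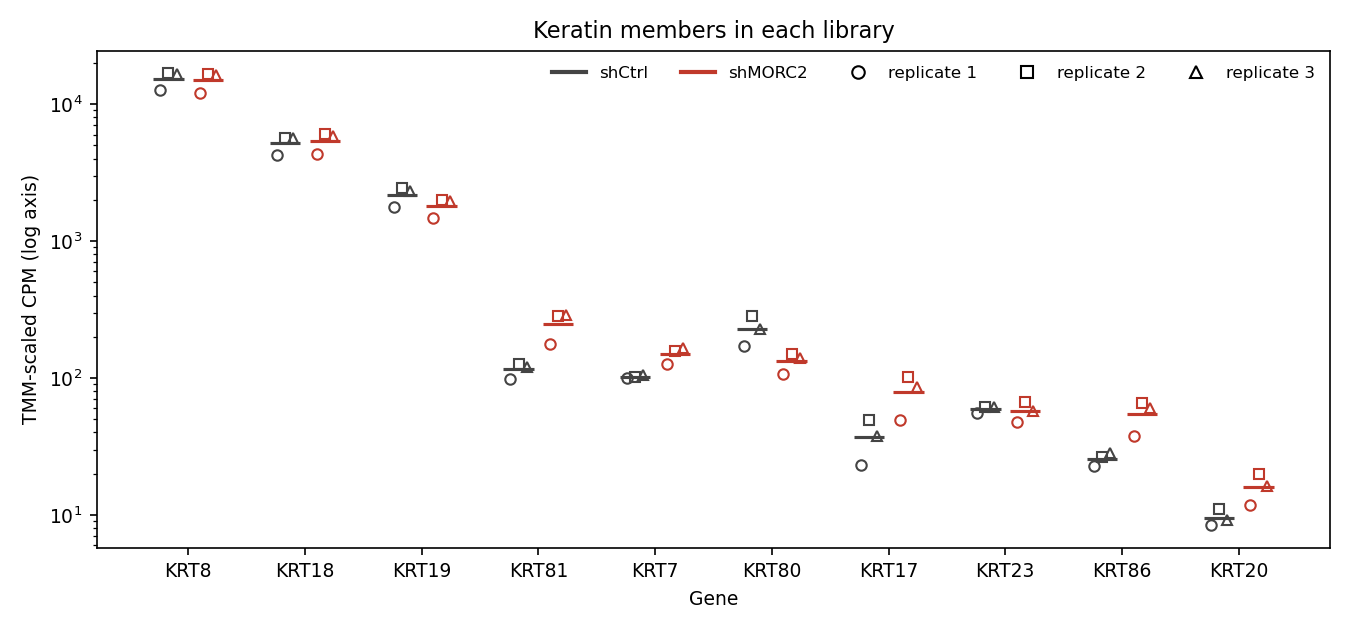
TMM-scaled CPM (log axis) of the 10 keratin genes in each of 3 shCtrl (grey) and 3 shMORC2 (red) libraries, with the replicate number as the symbol and the group mean as a line. KRT81, KRT86, KRT7 and KRT20 lie wholly above their shCtrl values, KRT80 lies wholly below, and replicate 1 is the lowest of its group for every gene.

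The next comparison asked how keratin RNA differed between shMORC2 and shCtrl cells. Of the 10 keratin genes, 6 were called at an adjusted p under 0.05, with KRT7, KRT17, KRT20, KRT81 and KRT86 higher and KRT80 lower in shMORC2. All 10 passed the filter on low counts. The background was high, since 39.5% of the 21005 genes tested were called, 19.9% higher and 19.6% lower. The median log2 fold change of the 10 genes was 0.30 and that of all genes tested was -0.01. Since the 10 genes were chosen with earlier results of these data known, no excess over the background is inferred. Values of shMORC2 and shCtrl did not overlap for 5 of the 10 genes, against 50.2% of all genes tested, so a separation of this kind was common among all genes.
In bulk RNA, a change in the share of cells that express a gene cannot be told apart from a change of its RNA per cell.

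The simple-epithelium pair came first by level. KRT8, the main type II keratin of the gut, had 12772, 16794 and 16574 CPM in shCtrl and 12161, 16593 and 16459 CPM in shMORC2. KRT18, its type I partner, had 4287, 5617 and 5649.7 CPM in shCtrl and 4293, 6028 and 5817 CPM in shMORC2. The groups overlapped for both genes. The fold of shMORC2 over shCtrl was 0.980 for KRT8, with a 95% interval from 0.804 to 1.19 (adjusted p = 0.880). For KRT18 the fold was 1.04, with an interval from 0.851 to 1.27 (adjusted p = 0.778). A change within these intervals could not be told from none.

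KRT19, a type I keratin that lacks most of the tail domain, had 1771, 2424 and 2304 CPM in shCtrl and 1462, 1996 and 1953 CPM in shMORC2. Each shMORC2 library lay below the shCtrl library of the same number, but the groups overlapped. The fold was 0.833, with an interval from 0.685 to 1.01, and KRT19 was not called (log2 fold change -0.26, SE 0.13, adjusted p = 0.124). With the replicate block the log2 fold change was -0.27 with an SE of 0.053, and the call was then made (adjusted p = 0.000103, n = 3 pairs by replicate number, lower in 3 of 3). The block called 49.0% of all genes tested. KRT19 was also called without shCtrl replicate 1, at a log2 fold change of -0.39, and without replicate 1 of both groups, at -0.26. A fit with no filter on low counts called it too, at -0.27. With the block these made 4 of 15 alternatives. Without shMORC2 replicate 1 the log2 fold change was -0.13 and without shCtrl replicate 2 it was -0.18, and KRT19 was not called.

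KRT20, a keratin of differentiated enterocytes and goblet cells used as a marker of colorectal origin, was the lowest of the members. It had 8.40, 10.9 and 9.14 CPM in shCtrl and 11.7, 19.9 and 16.2 CPM in shMORC2, from raw counts between 368 and 828. The groups did not overlap. The fold was 1.68, with an interval from 1.31 to 2.15 (log2 fold change 0.75, SE 0.16, adjusted p = 0.00306).

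Upstream sequence was at hand for 2 of the 10 members, KRT8 and KRT20, from RefSeq in GRCh38.p14, and only that of KRT20 is shown. KRT20 was called, and the RefSeq start of KRT8 lay 21393 bases upstream of the start of its canonical transcript. The 250 bases before its start, chr17:40885243-40885492 on the minus strand, read as follows, with the motif match in capitals.
KRT20: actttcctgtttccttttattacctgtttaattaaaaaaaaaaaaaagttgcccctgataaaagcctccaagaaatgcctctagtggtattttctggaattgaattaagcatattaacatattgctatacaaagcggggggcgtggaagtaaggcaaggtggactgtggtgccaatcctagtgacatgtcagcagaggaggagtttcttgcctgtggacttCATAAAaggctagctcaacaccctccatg
The capitals mark a reverse match to TTTATG, the half-site of caudal-type homeobox factors, at positions -29 to -24 from the start. The letters TTTATG occurred on either strand in 9.64% of 35116 RefSeq windows of this length. The letters TATAAA of a TATA box had 0 matches here and occurred in 10.7% of the windows. As printed, however, the capitals read CATAAA, which differs from TATAAA in the first letter only. An AP-1 site, searched as TGANTCA, also had 0 matches and occurred in 6.57% of them. A GC box, searched as GGGCGG, had 0 matches and occurred in 42.6%. A match of 6 letters describes the window and does not show binding.

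KRT7, a type II keratin of ductal and glandular epithelium that most colorectal tumours lack, was detected in every library. It had 99.7, 100.9 and 105 CPM in shCtrl and 125, 156 and 164 CPM in shMORC2. Relative to their mean the 3 shCtrl values were the closest together of any member, and the groups did not overlap. The fold was 1.46, with an interval from 1.27 to 1.68 (log2 fold change 0.55, SE 0.095, adjusted p = 0.000577). KRT7 shared 282 exon bases with RP3-416H24.1 on the opposite strand, 6.89% of its exon length.

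KRT23, a type I keratin that occurs in some gut tumours, had 55.7, 61.4 and 61.6 CPM in shCtrl and 47.5, 66.6 and 57.3 CPM in shMORC2. The shMORC2 values lay on both sides of the shCtrl values. The fold was 0.959, with an interval from 0.818 to 1.13 (adjusted p = 0.689).

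KRT80, a type II keratin of broad epithelial expression, was the only member called lower. It had 171, 281 and 227 CPM in shCtrl and 107, 151 and 140.1 CPM in shMORC2. The groups did not overlap, although the shCtrl libraries were spread widely. The fold was 0.587, with an interval from 0.466 to 0.739 (log2 fold change -0.77, SE 0.15, adjusted p = 0.00165).

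KRT17, a type I keratin induced in wounded and hyperproliferative epithelium, had 23.2, 49.2 and 38.0 CPM in shCtrl and 49.0, 102 and 86.4 CPM in shMORC2. The lowest shMORC2 library lay just under the highest shCtrl library, so the groups overlapped. Within a replicate number the 3 log2 differences were 1.08, 1.05 and 1.19. KRT17 rose with a fold of 2.15 and an interval from 1.48 to 3.13 (log2 fold change 1.10, SE 0.25, adjusted p = 0.00367). The wide interval of the unpaired comparison went with the low replicate 1 of both groups.

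The hair keratin pair rose to a like extent. KRT81 had 98.7, 127 and 121 CPM in shCtrl and 177, 285 and 287 CPM in shMORC2. KRT86 had 22.8, 26.3 and 28.1 CPM in shCtrl and 37.9, 65.8 and 60.02 CPM in shMORC2. For both genes the lowest shMORC2 library lay above the highest shCtrl library. The fold was 2.16 for KRT81, with an interval from 1.71 to 2.72 (log2 fold change 1.11, SE 0.15, adjusted p = 0.000113). For KRT86 the fold was 2.12, with an interval from 1.67 to 2.69 (log2 fold change 1.08, SE 0.16, adjusted p = 0.000172). Since the transcripts share many windows, part of the KRT86 count may come from KRT81 or the reverse, and the genes are not independent of each other. KRT83, another hair keratin with 89.3% coding identity to either gene, went the other way, with 199, 205 and 189 counts in shCtrl and 130, 148 and 139 counts in shMORC2 (log2 fold change -0.52, SE 0.14, adjusted p = 0.0108).

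**Figure D2:**
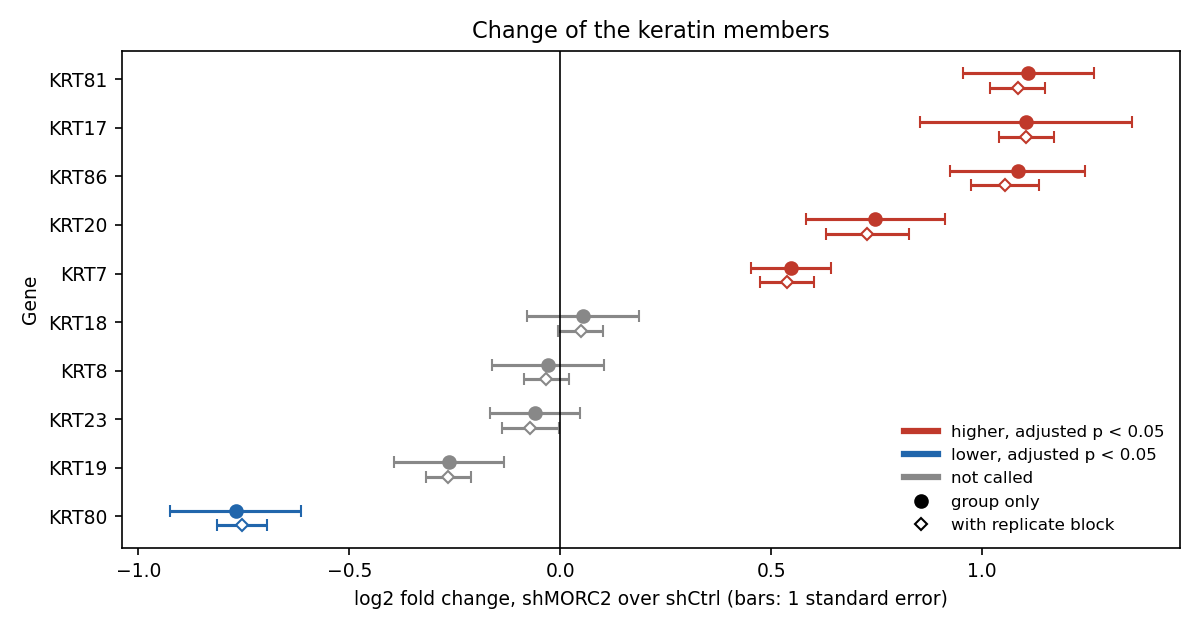
log2 fold change of shMORC2 over shCtrl (x axis) for each keratin gene, with 1 standard error, from the fit with the group alone (circles) and from the fit that adds the replicate block (diamonds). Colour gives the call of the first fit: 5 genes higher, 1 lower and 4 not called. The estimates of both fits nearly coincide and the block narrows the errors, most for KRT17 (SE 0.25 against 0.065).

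By TMM-scaled CPM, library 1 was the lowest of its group for all 10 members in both shCtrl and shMORC2, a pattern noticed after the values were seen. By unscaled counts KRT7 in shCtrl did not follow it, with 4372, 4269 and 4302 counts. Among all genes tested 20.8% did so. In replicate 1, KRT8 stood at 0.766 of the mean of replicates 2 and 3 in shCtrl and at 0.736 in shMORC2. For KRT17 the same ratios were 0.533 and 0.521, and for KRT7 they were 0.971 and 0.783. Leaving out replicate 1 of both groups, an alternative added after seeing the data, gave 7 calls among the 10 members, and KRT19 joined the 6 named above. In that fit 43.8% of all genes tested were called. The cause of the low replicate 1 was not tested.

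A level per transcript length allowed the members to be ranked. Counts were divided by the length of the canonical transcript and by the library total (RPKM), because the merged exon length in the count table is 6881 bases for KRT8 against 1784 bases for its canonical transcript. KRT8 led with 8624 ± 1128 RPKM in shCtrl and 8398 ± 1244 RPKM in shMORC2 (SD, n = 3). KRT18 followed with 3669.9 ± 486 and 3784 ± 593 RPKM, and KRT19 with 1559 ± 229 and 1290.0 ± 187 RPKM. These 3 genes were set apart from each other and from the rest in every library.

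Below them the order changed with the group and with the length used. By the RPKM the authors deposited, KRT7 had 24.9 ± 0.121 in shCtrl and 36.1 ± 4.33 in shMORC2, below every KRT81 value in both. In shCtrl it also lay below every KRT80 value. KRT86 then stood above KRT23 in shMORC2, at 22.6 ± 5.69 and 19.6 ± 2.89 RPKM. The levels that follow use canonical transcript lengths, chosen after the data were seen. In shCtrl, KRT7 had 62.7 ± 0.305 RPKM, KRT81 59.99 ± 6.98 RPKM and KRT80 58.5 ± 13.9 RPKM, and these 3 levels overlapped. In shMORC2, KRT81 stood at 128 ± 30.3 RPKM and KRT7 at 91.0 ± 10.9 RPKM, still overlapping. KRT80 was at 34.1 ± 5.14 RPKM and KRT17 at 51.7 ± 16.8 RPKM in shMORC2, where their ranges overlapped too. KRT23 at 25.7 ± 3.80 RPKM and KRT86 at 24.1 ± 6.07 RPKM overlapped in shMORC2, and KRT20 was the lowest in both groups, with 5.27 ± 0.718 RPKM in shCtrl and 8.77 ± 2.08 RPKM in shMORC2.

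Keratin RNA as a whole was carried by the 3 genes at the top. The 10 members made up 1.98%, 2.56% and 2.45% of all gene counts in the shCtrl libraries and 1.89%, 2.497% and 2.47% in the shMORC2 libraries. KRT8, KRT18 and KRT19 together supplied between 96.7% and 97.7% of these counts. KRT8 was the second most counted gene in every shCtrl library and the most counted in every shMORC2 library. The summed RPKM, from the RPKM the authors deposited, was 4963 ± 665 in shCtrl and 4883 ± 752 in shMORC2 (SD, n = 3). The difference of -0.02 on the log2 scale was far smaller than the spread between libraries.

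The ratio of KRT8 to KRT18, the partners of one filament, was steadier than either level. By deposited RPKM it was 1.39, 1.40 and 1.37 in shCtrl and 1.32, 1.29 and 1.32 in shMORC2. Every shMORC2 library lay below every shCtrl library, and the mean ratio was 1.39 ± 0.014 in shCtrl and 1.31 ± 0.021 in shMORC2. With canonical transcript lengths the ratio was 2.35 ± 0.024 and 2.22 ± 0.036, so the log2 difference of -0.08 stayed as it was while the ratio itself depended on the length used. No test was run on this ratio, and the part of the 525 exon bases that both genes share was not tested.

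**Figure D3:**
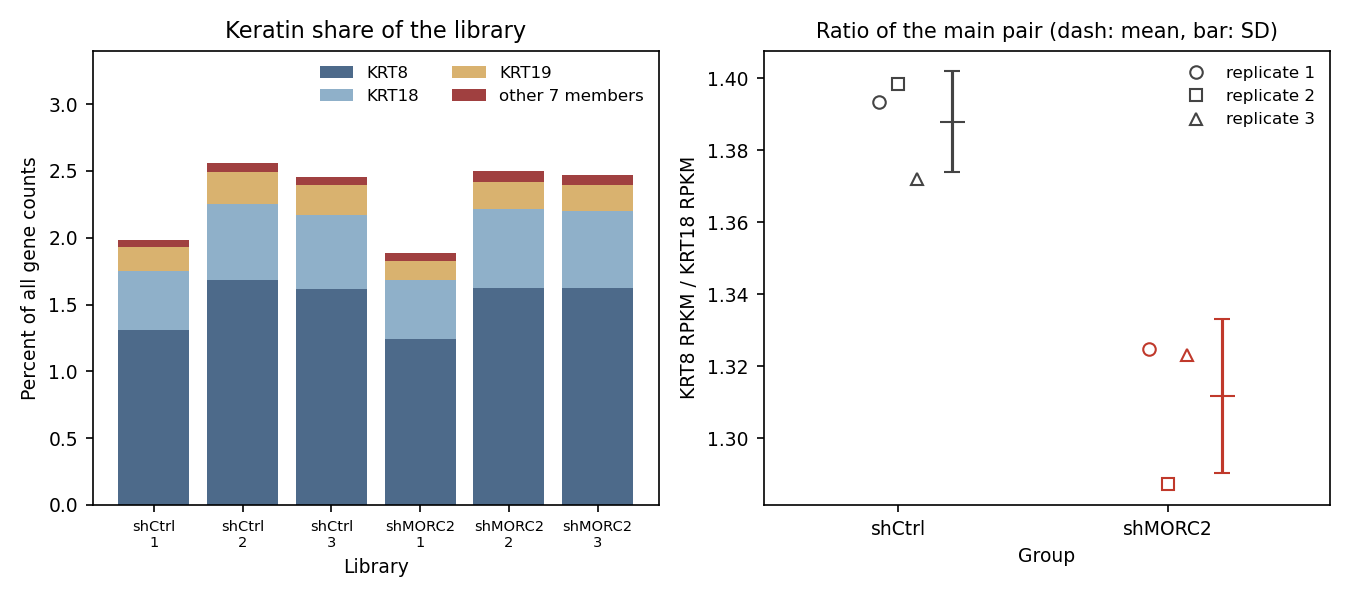
Left, percent of all gene counts taken by KRT8, KRT18, KRT19 and the remaining members in each library. Right, KRT8 over KRT18 by deposited RPKM, with each library as a symbol and the mean with SD beside it (axis not from 0). Replicate 1 has the smallest share in both groups, while the ratio separates the groups without overlap.

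The rest of the keratin family was then examined. Of 45 other type I and type II keratin genes, 19 passed the filter on low counts and 8 were called, 7 higher and KRT83 lower, beside 39.5% called of all genes tested, 19.9% higher and 19.6% lower. Of the same 45 genes, 14 had at most 3 counts in every library and 5 of them had 0. The median log2 fold change of the 19 genes was 0.45, beside -0.01 for all genes tested. Low counts in this table were more often even than odd, at 67.0% to 70.7% of counts from 1 to 10 against 50.1% to 51.1% of counts over 100 and up to 1000, so a count of 2 may not stand for 2 independent fragments.

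Several of the genes that rose belong to basal or activated stratified epithelium. KRT5, the type II keratin of basal cells, had 767, 625 and 523 counts in shCtrl and 2657, 3974 and 3733 counts in shMORC2. It rose 5.40-fold, the largest change of any keratin gene tested (log2 fold change 2.43, SE 0.16, adjusted p = 3.42e-07). KRT14, the usual partner of KRT5, stayed at low counts, with 45, 44 and 35 in shCtrl and 29, 86 and 55 in shMORC2 (log2 fold change 0.45, SE 0.34, adjusted p = 0.322). It was called without shMORC2 replicate 1 (0.79, adjusted p = 0.0335) and without replicate 1 of both groups (0.83, adjusted p = 0.0307). KRT6A, a keratin of activated keratinocytes, had 149, 128 and 167 counts in shCtrl and 433, 761 and 697 counts in shMORC2. It rose 4.23-fold (log2 fold change 2.08, SE 0.20, adjusted p = 6.96e-06), although 35.2% of its transcript windows also occur in KRT6C and 28.6% in KRT6B. KRT16, a partner of KRT6, had 68, 126 and 90 counts in shCtrl and 226, 284 and 243 counts in shMORC2 (log2 fold change 1.39, SE 0.21, adjusted p = 0.000191). It shared 21.8% of its windows with other transcripts, 11.2% with KRT14. KRT14 shared 24.2% of its own, 11.3% with KRT16.

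KRT10, KRT40 and KRT75 also rose. KRT10, a keratin of differentiating epidermis, had a log2 fold change of 0.74 (SE 0.088, adjusted p = 3.23e-05). KRT40, a hair keratin, had 0.76 (SE 0.099, adjusted p = 6.47e-05) and KRT75, of the follicle, had 0.67 (SE 0.18, adjusted p = 0.0105). KRT2 was called at 1.49 (SE 0.55, adjusted p = 0.0471) from 3 to 18 counts a library, and the groups overlapped. Its call was lost without shCtrl replicate 1 or 2 or shMORC2 replicate 2 or 3, at log2 fold changes from 1.18 to 1.36, and without replicate 1 of both groups, at 1.44. The KRT2 call was also lost with DESeq2 (adjusted p = 0.121), in edgeR with no filter on low counts (0.0545) and in limma without a filter (0.113). KRT6B was not called (log2 fold change 0.39, adjusted p = 0.140) but was with the replicate block (adjusted p = 0.0139), without shCtrl replicate 1 (0.73) and without replicate 1 of both groups (0.74). KRT15, a basal keratin at a level near that of KRT40, had a log2 fold change of -0.02 (SE 0.13, adjusted p = 0.925). The remaining 8 tested genes (KRT1, KRT6C, KRT13, KRT39, KRT74, KRT78, KRT79 and KRT85) were not called, with log2 fold changes from -0.33 for KRT85 to 0.86 for KRT74.

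**Figure D4:**
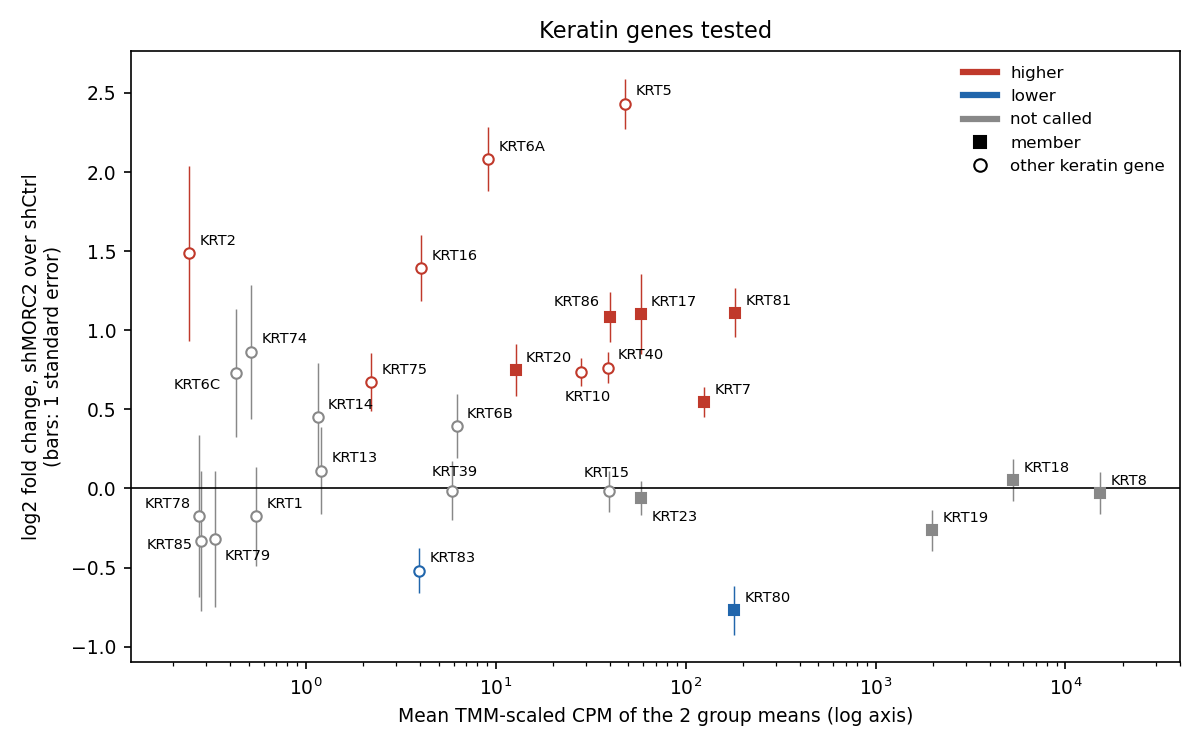
log2 fold change of shMORC2 over shCtrl with 1 standard error (y axis) against the mean CPM (log x axis) for the 29 keratin genes tested, with members as filled squares and other keratin genes as open circles. The most abundant keratins, KRT8, KRT18 and KRT19, sit near 0, and the largest rises, KRT5 and KRT6A, lie at lower CPM.

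Retrocopies of KRT8 and KRT18 formed a further readout. The count table held 50 KRT8, 67 KRT18 and 5 KRT19 pseudogenes among 147 keratin pseudogenes. Of these 147 genes, 62 passed the filter and 27 were called, 25 higher and 2 lower. Of all genes tested 39.5% were called, 19.9% higher and 19.6% lower. The median log2 fold change of the 62 genes was 0.57, beside -0.01 for all genes tested. KRT18 pseudogenes together had 31.0, 32.9 and 32.6 CPM in shCtrl and 51.4, 57.1 and 65.2 CPM in shMORC2. Their sum thus differed by 0.85 on the log2 scale without overlap, whereas KRT18 itself differed by 0.05. Among all genes tested, 50.2% had no overlap between groups. Relative to KRT18 their counts went from between 0.577% and 0.722% in shCtrl to between 0.948% and 1.20% in shMORC2.

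KRT8 pseudogenes were dominated by KRT8P3, which held 72.4% of their counts. KRT8P3 had 223, 293 and 291 CPM in shCtrl and 230.4, 315 and 306 CPM in shMORC2 and was not called (log2 fold change 0.08, SE 0.12, adjusted p = 0.654). It shared 28.2% of its windows with KRT8 and, like KRT8, was lowest in library 1 of both groups. KRT8P45, the next by counts, rose (log2 fold change 0.38, SE 0.12, adjusted p = 0.0237), but its call was lost without shCtrl replicate 1 or 2 or shMORC2 replicate 2 or 3, at an adjusted p of 0.0640 to 0.132. Counting every alternative, KRT8P45 was called in 10 of 15, and its groups overlapped. Without KRT8P3, a choice made after the data were seen, the KRT8 pseudogenes had 84.0, 97.7 and 89.7 CPM in shCtrl and 109, 119 and 131 CPM in shMORC2. How reads matching several copies were counted is not given in the sources used here, and the part of such reads in these sums was not tested.

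**Figure D5:**
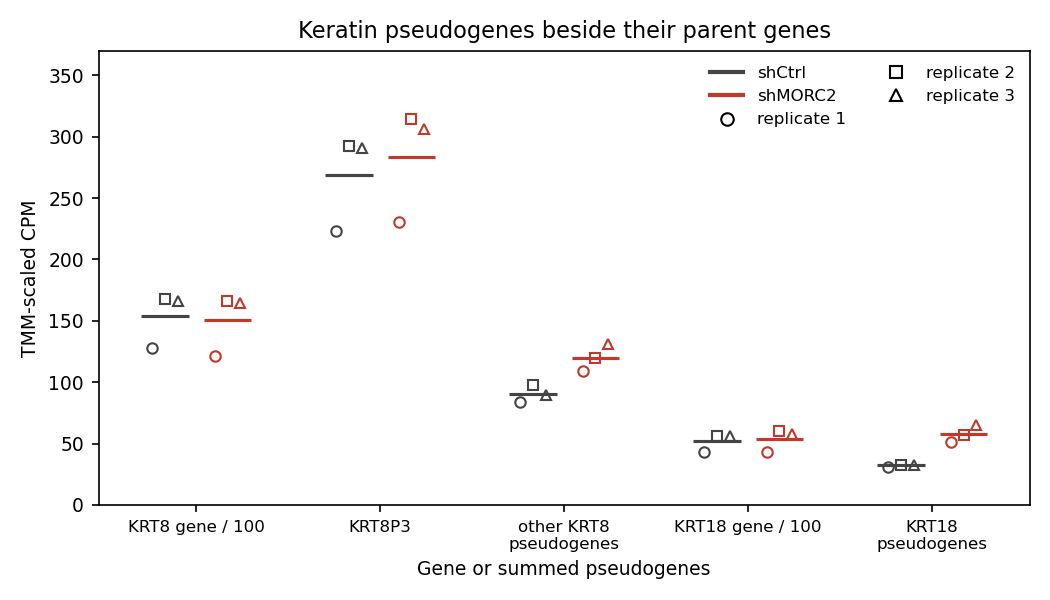
TMM-scaled CPM of KRT8 and KRT18 (divided by 100 to share the axis), of KRT8P3, of the other KRT8 pseudogenes and of the KRT18 pseudogenes, by library. KRT8, KRT18 and KRT8P3 overlap between groups, while the other KRT8 pseudogenes and the KRT18 pseudogenes lie above shCtrl in every shMORC2 library.

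Keratin filaments are anchored by genes of desmosomes, hemidesmosomes and linkers, of which 24 were listed. Of these, 20 were tested and 8 called, 3 higher and 5 lower, with a median log2 fold change of -0.04. Among all genes tested 39.5% were called, so this share is near the background. PERP, a desmosomal membrane protein, rose (log2 fold change 0.65, SE 0.086, adjusted p = 7.13e-05), as did DSC2, a desmosomal cadherin (0.33, SE 0.11, adjusted p = 0.0284). PKP3, a plakophilin of the desmosomal plaque, fell by 0.68 (SE 0.075, adjusted p = 1.88e-05), and PLEC, which links filaments to hemidesmosomes, fell by 0.38 (SE 0.13, adjusted p = 0.0366). With the replicate block 14 of the 20 were called, beside 49.0% of all genes tested, and without replicate 1 of both groups 13 were, beside 43.8%. Without shCtrl replicate 2 or 3 the count was 5, and without shMORC2 replicate 3 it was 4. Over all genes those fits called 6428 of 21594, 6707 of 21663 and 6268 of 21598. The DSC2 call was lost without shCtrl replicate 2 or 3 or shMORC2 replicate 1, at 0.26 to 0.31, and the PLEC call without shCtrl replicate 2 or 3 or shMORC2 replicate 1 or 3, at -0.44 to -0.25. Counting every alternative, DSC2 was called in 9 of the 13 that tested it and PLEC in 8 of 15. The groups overlapped for PLEC.

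Intermediate filament genes other than keratins gave 5 calls of 12 tested among 16 listed, 2 higher and 3 lower, a share near the 39.5% of all genes tested, with a median log2 fold change of -0.03. SYNM, which encodes synemin, rose (log2 fold change 1.08, SE 0.13, adjusted p = 3.32e-05). NEFH, a neurofilament gene, was called higher (1.25, SE 0.39, adjusted p = 0.0202) from 8 to 34 counts. The lamin genes LMNB2 and LMNB1 fell by 0.31 (SE 0.081, adjusted p = 0.00877) and 0.29 (SE 0.094, adjusted p = 0.0275). The count was 3 without shCtrl replicate 1 or shMORC2 replicate 3, and 2 without shCtrl replicate 3 or shMORC2 replicate 2. Over all genes those fits called from 6268 of 21598 to 7898 of 21521. NEFH lost its call without shCtrl replicate 1 or 3, shMORC2 replicate 2 or replicate 1 of both groups, at 0.94 to 1.25. LMNB2 lost it without shMORC2 replicate 2 (-0.26), and LMNB1 without shCtrl replicate 1 or 3 or shMORC2 replicate 2 or 3, at -0.30 to -0.19. Counting every alternative, NEFH was called in 8 of the 13 that tested it and LMNB1 in 8 of 15.

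Colonocyte differentiation was followed through 29 listed genes, of which 15 were tested and 5 called, 2 higher and 3 lower, with a median log2 fold change of -0.13. This share lies below the 39.5% called of all genes tested. TFF3, a goblet cell peptide, and CDX2, a gut homeobox factor, rose with log2 fold changes of 0.63 (SE 0.093, adjusted p = 0.000161) and 0.47 (SE 0.14, adjusted p = 0.0158). FABP1, an enterocyte fatty acid carrier, fell by 1.20 on the log2 scale (SE 0.15, adjusted p = 5.2e-05), and KLF4, a factor of terminal differentiation, fell by 1.12 (SE 0.13, adjusted p = 2.37e-05). Without shMORC2 replicate 1 the count was 8, in a fit that called 8433 of 21524 genes. The CDX2 call was lost without shCtrl replicate 2 or 3 or shMORC2 replicate 3, at 0.31 to 0.43. Counting every alternative, CDX2 was called in 9 of 15, and its groups overlapped.

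Squamous differentiation genes were mostly at low counts. Of 20 listed genes, 8 were tested and 3 called, all 3 higher, with a median log2 fold change of 0.25, beside 39.5% called of all genes tested. FLG, the epidermal filaggrin gene, had a log2 fold change of 1.06 (SE 0.18, adjusted p = 0.000587) and S100A2 1.02 (SE 0.12, adjusted p = 2.84e-05). CDSN, the corneodesmosin gene, had 0.84 (SE 0.15, adjusted p = 0.0006). With the replicate block SFN was called as well, lower at -0.20 (adjusted p = 0.00734), against an adjusted p of 0.340 without it. Of the 20 genes, 9 had at most 3 counts in every library, and 12 did not pass the filter on low counts. One of these, S100A7, had 78, 80 and 1 counts in shCtrl and 0 in every shMORC2 library, and it was called lower in DESeq2 and in edgeR with no filter on low counts. SFN and S100A7 were named after their values were seen.

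Markers of cell identity were checked beside these results. Of 14 epithelial markers 13 were tested and 9 called, 8 lower and CDX2 higher, beside 39.5% called of all genes tested, 19.6% lower. The 13 tested markers had a median log2 fold change of -0.41, beside -0.01 for all genes tested. The 8 lower ones ran from -0.36 for CLDN4 to -4.41 for GRHL2, which had 0 to 49 counts a library. The summed level of the 14 markers was 1705 to 1882 CPM in shCtrl and 1554 to 1771 CPM in shMORC2. The most abundant were VIL1 and EPCAM, neither called, with means of 676 and 478 CPM in shCtrl and 654 and 515 CPM in shMORC2. These 4 markers were named after their values were seen. Fibroblast markers summed to 20.01 to 21.0 CPM in shCtrl and 22.8 to 25.1 CPM in shMORC2, endothelial markers to 15.8 to 19.96 and 20.8 to 22.5 CPM, and leukocyte markers to 8.46 to 9.25 and 9.18 to 10.5 CPM. Of these, 3 fibroblast, 2 endothelial and 2 leukocyte markers were tested and 1 was called. It was the endothelial gene VWF, named after its values were seen and higher in shMORC2. With the replicate block LUM and PECAM1, fibroblast and endothelial markers, were called higher too (adjusted p = 0.0306 and 0.00587), beside 49.0% called of all genes tested. TEK and MS4A1 had 0 counts in every library and DCN, POSTN, CDH5 and KDR had at most 2. The part of the lower epithelial markers in the keratin changes was not tested.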

How the data were processed

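Polyadenylated RNA of 3 shCtrl and 3 shMORC2 SW480 cultures was sequenced from stranded libraries. The submitters' processing notes name Trimmomatic 0.36, STAR 2.5.3a, featureCounts in Subread 1.5.1, edgeR 3.12.1 and GRCh38. The authors deposited raw read counts for 56303 gene symbols and RPKM values, which equal the count divided by exon length and library total. How molecular identifiers and reads matching several genes were treated is not given in the sources used here. The deposited splicing tables hold the authors' own comparison and were not used. The gene tables had 0 further value columns.

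The test was the quasi-likelihood F test of edgeR 4.0.16 (R 4.3.3) after filterByExpr and TMM, with the group alone in the model and Benjamini-Hochberg adjustment over 21005 genes, and an adjusted p under 0.05 was called. The SE is the absolute log2 fold change divided by the square root of F. Alternatives used DESeq2 1.42.0, limma 3.58.1 on log2 RPKM, other filters, a replicate block and each library left out. Leaving out replicate 1 of both groups, canonical transcript lengths and the sum without KRT8P3 were added after seeing the data. The fit was tested on simulated data. The labels give replicate numbers but do not state that libraries of the same number are paired, so the block assumes it. Deviations from the group means of same-numbered libraries correlated at 0.215, 0.111 and 0.102. Libraries of different number were not compared in this way. Coordinates follow the count table. All 3227 same-symbol genes on chromosomes 12 and 17 overlapped their GENCODE v44 entry. The shared windows were 50 bases long.

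The genes and lists were chosen with earlier results of these data known. Named were MORC2, the 10 members, every other keratin gene tested, and in the anchoring, other intermediate filament, colonocyte and squamous lists the called genes with the 2 highest and 2 lowest fold changes. KRT8P3 and KRT8P45 had the most counts among pseudogenes.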

Additional observations from a re-analysis of the deposited data

How the results depend on the processing

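Under 15 alternatives KRT7, KRT81 and KRT86 kept their direction and call, and KRT17, KRT20 and KRT80 did so in 14. The exception was limma on log2(RPKM + 1) with no filter on low values, where 3 members were called. The adjusted p there was 0.0536 for KRT80, 0.0973 for KRT17 and 0.0633 for KRT20. That fit called 5454 of 36613 genes, beside 8301 of 21005 in the main fit. Under that fit 4 anchoring genes, 2 other intermediate filament genes and 3 colonocyte genes were called. With the filter, limma called 5 anchoring and 3 other intermediate filament genes at either pseudocount (1 and 0.1). It then called 6269 and 6227 of 14816 genes. The replicate block called 14 anchoring genes, leaving out replicate 1 of both groups 13, and no filter on low counts called 8 colonocyte genes. Over all genes these fits called 10287 of 21005, 9230 of 21089 and 8628 of 36613.

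Leaving out each library in turn gave 4 to 10 calls among anchoring genes, 2 to 6 among other intermediate filament genes and 5 to 8 among colonocyte genes. Over all genes these fits called from 6268 of 21598 to 8433 of 21524. The sign turned in some fits without 1 library for genes that were not called. KRT8 ranged from -0.15 to 0.11, KRT18 from -0.068 to 0.19, KRT23 from -0.18 to 0.060, KRT78 from -0.92 to 0.19, KRT13 from -0.14 to 0.34, KRT14 from -0.0040 to 0.79, KRT15 from -0.15 to 0.12 and KRT39 from -0.27 to 0.12. Without replicate 1 of both groups, KRT23 was at 0.013, KRT78 at 0.27 and KRT13 at -0.063. The log2 differences between groups in the KRT8 to KRT18 ratio and the summed level moved by less than 1 SD in every alternative, canonical transcript lengths (chosen after seeing the data) included. The cause of these shifts was not tested. All libraries came from one line per hairpin, which sets the limit on every comparison.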

Other observations

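The genes around the keratins were counted too. The keratin span on chromosome 12 held 51 genes in the count table, of which 25 were tested and 12 called, 9 higher and 3 lower. The span on chromosome 17 held 82 genes, of which 20 were tested and 10 called, all 10 higher. Leaving out the type I and type II keratin genes, but keeping keratin pseudogenes such as KRT87P, 7 and 9 genes were tested and 3 and 5 called. The 16 genes next to a member on either side that are not members gave 10 tested and 5 called, 3 higher and 2 lower. Of all genes tested, 39.5% were called, 19.9% higher and 19.6% lower. The called keratin genes of both spans are among those reported above.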
